A study of Mus musculus with 12 samples.

Results

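The cytosolic ribosomal protein genes were taken as the protein-coding genes of the deposited TPM table whose GENCODE symbol is Rpl or Rps with a number, with or without an a, x or l and a further digit, together with Rplp0, Rplp1, Rplp2 and Rpsa. This rule, which uses symbols and no measured value, found 83 of the 34866 genes of the table. Of these, 77 were canonical ribosomal proteins, 46 of the large and 31 of the small subunit, and 6 were paralogs with symbols ending in l or in l and a digit (Rpl3l, Rpl7l1, Rpl10l, Rpl22l1, Rpl39l and Rps27l). TPM is a gene's share of a library's transcripts, scaled to a fixed total and already corrected for transcript length.

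The cytosolic ribosome joins a small subunit, which reads the mRNA, to a large subunit, which forms the peptide bond, and most of its proteins are encoded by a single expressed gene. These mRNAs are among the most abundant of a growing cell, and most start with a run of pyrimidines, the 5′ terminal oligopyrimidine (TOP) motif, through which their translation follows mTOR signaling. Most ribosomal protein genes also have many processed pseudogenes in the mouse genome, intronless copies of their mRNA that differ from it at few bases.

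PolyA RNA was sequenced from 12 libraries of mouse embryonic fibroblasts (MEFs). Cells of each sex were WT or KO for Sirt3, which gives 4 groups of 3 libraries. WT cells came from the 129S1/SvImJ strain and KO cells from a Sirt3-/- stock, both from individual embryos of 13 days. All lines were immortalized with a plasmid carrying the SV40 T-antigen, which binds p53 and Rb, so every group, WT included, carried it. All were taken at passage 6, 48 h after seeding in triplicate wells, and no further treatment is described. Nothing states that the 3 libraries of a group came from separate lines, so p-values measure the spread between these libraries, which may be technical. If each group was 1 line, a difference between lines cannot be told apart from one of genotype or sex.

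TPM hold no read totals, so the depth and counting error of a library could not be given. Sirt3 mRNA ran from 6.59 to 11 TPM and was not lower in the libraries labelled KO, so KO here means labelled KO. The study also shows an immunoblot of Sirt3 protein, which gene-level TPM cannot be set against. Of 12 fibroblast markers, 11 had a median of at least 1 TPM, against 2 of 5 epithelial, 2 of 6 endothelial and blood, 2 of 9 muscle and 0 of 7 germ cell markers. The summed epithelial markers ran from 0.851 TPM in male KO to 9.97 TPM in male WT, the fibroblast markers from 8291 TPM in female WT to 12731 TPM in male KO, and the endothelial and blood markers from 7.46 to 12.9 TPM. Muscle markers summed to between 8.80 and 23.6 TPM and germ cell markers to between 0.154 and 1.86 TPM, with Dazl and Tnp1 at 0 in every library, and the part of any of these in the results was not tested. Of 11 fibroblast markers tested 8 were higher in female KO and 4 higher and 1 lower in male KO, and both epithelial markers tested were lower in each KO. In bulk libraries a smaller share of one kind of cell and less mRNA per cell cannot be told apart.

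A RefSeq promoter window (GRCm38.p6) was at hand for 63 of the 83 members. Of 57 canonical members with a window, 34 (59.6%) held a C followed by at least 4 pyrimidines on the coding strand between 10 bases before and 20 bases after the annotated start, against 35.8% of all 27025 genes with a window. Of the paralogs, 5 of 6 held one. The windows printed here are of some members named below, and most hold a run. The called members Rpl37a, Rpl23, Rpl37, Rpl35a and Rps28 hold none and are not printed. The following 30-base windows are written 5′ to 3′ along the coding strand with the first such run in capitals.
Rpl38 (chr11:114668570-114668599, plus strand): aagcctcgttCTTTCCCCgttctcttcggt
Rplp2 (chr7:141447641-141447670, plus strand): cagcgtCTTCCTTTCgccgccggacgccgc
Rps6 (chr4:86857348-86857377, minus strand): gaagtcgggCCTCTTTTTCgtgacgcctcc
Rps4x (chrX:102189372-102189401, minus strand): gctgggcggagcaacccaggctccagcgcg
Rps27 (chr3:90213629-90213658, minus strand): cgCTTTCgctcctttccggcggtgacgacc
Rps27l (chr9:66946076-66946105, plus strand): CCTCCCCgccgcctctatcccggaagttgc
Rpl39 (chrX:37085203-37085232, minus strand): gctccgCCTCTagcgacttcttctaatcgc
Rpl39l (chr16:10170218-10170247, plus strand): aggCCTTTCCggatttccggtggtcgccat
Rpl22l1 (chr3:28805498-28805527, plus strand): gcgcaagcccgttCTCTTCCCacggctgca

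Some windows hold a further run in lower case, as that of Rps27 does. The first run was 8 bases long in Rpl38 and Rpl22l1, 9 in Rplp2 and 10 in Rps6, and no run lay in the window of Rps4x. In the full windows, from 250 bases before to 50 after the start and on both strands, CCGGAAG, a core bound by ETS factors, was found in 40.4% of canonical members against 9.12% of all genes, TATAAA in 8.77% against 14.2% and the E-box CACGTG in 8.77% against 7.24%. Of the 16455 protein-coding genes with a window, the class to which all members belong, 12.3% held CCGGAAG, 12.8% TATAAA and 8.13% CACGTG. A match is a string of letters and not a measured site. Canonical members with (n = 34) and without the run (n = 23) had median log2 fold changes of 0.12 and 0.10 between male WT and female WT. The medians were 0.0026 and 0.063 between female KO and female WT, and -0.050 and -0.045 between male KO and male WT. In the tests described below, 5 with and 8 without the run were called between WT sexes, 2 and 4 in female KO, and 3 and 6 in male KO. The counts were 3 and 0 between KO sexes, and 5 and 3 in the interaction. Of all genes 12.8%, 11.5%, 21.6%, 16.6% and 13% were called in that order, and the difference by run was not tested.

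Deposited levels of the canonical members, as means over the 12 libraries, ran from 28.9 TPM (Rpl29) to 6703 TPM (Rplp1), with a median of 1540 TPM, and 51 of 77 were above 1000 TPM. The highest were Rplp1, an acidic protein of the stalk that recruits elongation factors, Rpl23a at 4255 TPM and Rpl13a at 3848 TPM. The lowest were Rpl29, Rps3a1 at 35.6 TPM and Rpl5 at 60.3 TPM. Since a ribosome holds 1 copy of most of these proteins, such gaps were set beside the levels of their copies elsewhere in the genome.

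For 77 of the 83 members, 538 other genes shared at least 25% of the member's coding 31-base stretches and gave at least 25% of their own, and 526 of these were pseudogenes. For 32 members every coding 31-base stretch was also found in another gene. Rpl29 stood at 28.9 TPM but 1800 TPM with its copies, of which Gm13841 alone had 1768 TPM. Rpl5, which joins Rpl11 and 5S rRNA in the particle that binds Mdm2, stood at 60.3 TPM and at 1415 TPM with copies, mostly on Gm15500. Rps12 stood at 205 TPM against 4529 TPM on Rps12-ps3, and Rps3a1 at 35.6 TPM against 1445 TPM on Rps3a2.

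With copies added, the median canonical level rose from 1540 to 2168 TPM, 69 of 77 members were above 1000 TPM, and the lowest, Rplp0, stood at 239 TPM. For 19 members the copies held more than 50% of the summed TPM, while 58 members held at least 90% of it themselves. TPM of the former are uncertain, since the quantification has to divide reads that near-identical sequences share. Values with copies added are given for some of them, and not for every member whose call depends on the copies.

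**Figure D1:**
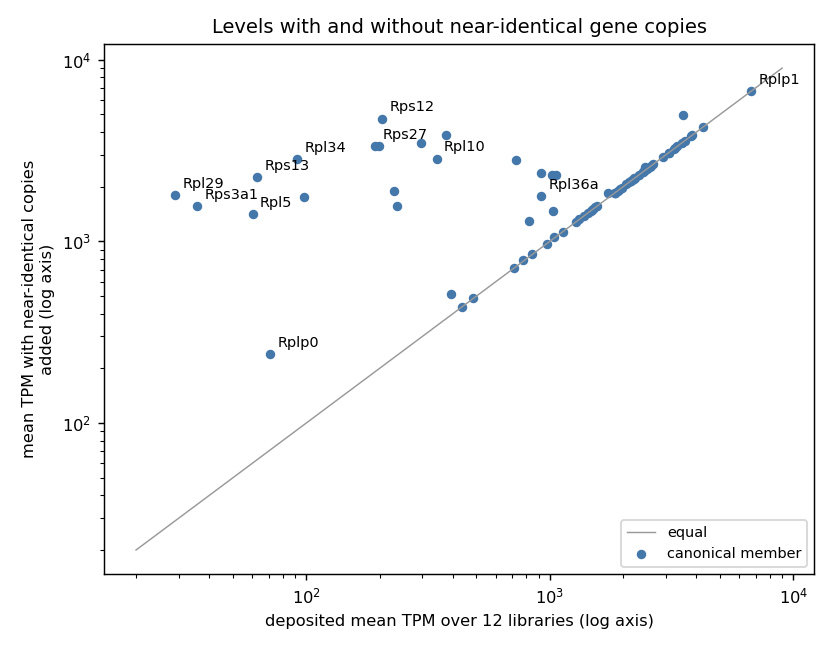
Mean TPM over 12 libraries of each canonical ribosomal protein gene as deposited (x, log axis) and with the TPM of its near-identical copies added (y, log axis), with a grey line where both are equal. Most genes lie on the line, while Rpl29, Rps3a1, Rpl5, Rps13 and Rps12 lie far above it and Rplp0 is the lowest after copies are added, at 239 TPM.

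Most members that varied widely between libraries were ones with abundant copies, though Rps15a, picked out after its values were seen and with 99.7% of its sum on itself, had a highest library 2.41 times the lowest. Rps27 read 609, 74.5 and 174 TPM in male WT, 260.4, 271 and 80.0 TPM in male KO, 124, 218 and 126 TPM in female WT and 165, 117 and 85.7 TPM in female KO. The highest library was 8.17 times the lowest, with no order by group. With its copies, chiefly Rps27rt at 3160 TPM, the same gene read from 2859 to 3694 TPM. On these values female KO, at 3356 to 3642 TPM, lay above female WT, at 2859 to 3119 TPM. That difference passed the test used below only with copies added, and male WT and male KO overlapped. Over all canonical members the highest library was a median of 1.21 times the lowest, and 67 of 77 stayed within 1.5 times.

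Together the 83 members held 13.6% ± 0.265 of all TPM in male WT, 13.2% ± 0.383 in male KO, 12.7% ± 0.312 in female WT and 13.1% ± 0.132 in female KO (SD, n = 3 each). Male WT had the highest mean share and female WT the lowest. The lowest male WT library, at 13.3%, lay above every female library, while male KO, at 12.9% to 13.7%, and female KO, at 12.9% to 13.1%, overlapped. Large-subunit genes held 7.22% to 8.005%, small-subunit genes 5.02% to 5.70% and the paralogs 0.114% to 0.138%. With copies the share ran from 16.5% to 18.4%.

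Between WT cells of different sex, ribosomal protein mRNAs were more often higher in male than in female MEFs. Tested with limma at an adjusted p (Benjamini-Hochberg) under 0.05, 18 of 81 members (22.2%) passed, all 18 higher and 0 lower in male WT, where 12.8% of all 12504 genes passed, 6.26% higher and 6.56% lower. The median log2 fold change of the 77 canonical members was 0.090, against -0.018 for all genes, and 65 of the 77 were above 0. With copies added 23 members passed, against 13.1% of all genes, and all 18 were among them in the same direction. Without male WT replicate 3 or without female WT replicate 3 the count fell to 7, and without male WT replicate 1 or female WT replicate 2 it was 11, of which 1 was lower in the former.

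Of the small subunit, Rps29, a short zinc-binding protein, read 2097, 2006 and 2165 TPM in male WT and 1628, 1466 and 1569 TPM in female WT. Every male library lay above every female one, with a log2 fold change of 0.43 (SE 0.047, adjusted p = 0.00171 by limma). Rps19, Rps28 and Rps3 also rose, by 0.18 to 0.25. Rps19 is best known from Diamond-Blackfan anemia, in which it is often mutated.

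Of the large subunit, Rpl38, whose loss in mice changes the translation of Hox mRNAs, read 2706, 2595 and 2758.5 TPM in male WT and 2207, 2058 and 2167 TPM in female WT. The groups did not overlap, with a log2 fold change of 0.33 (SE 0.037, adjusted p = 0.00196 by limma). Rpl39, at the exit of the peptide tunnel, read 759.7, 711 and 824 TPM against 678, 581 and 627 TPM, a log2 fold change of 0.28 (SE 0.071, adjusted p = 0.0457 by limma), and lost the call when any of 4 libraries was left out (highest adjusted p = 0.122). Rpl37 and Rpl37a, both zinc-binding, were higher by 0.29 and 0.27. Rpl30 was higher by 0.38 as deposited and by 0.15 with copies. Rpl11, Rpl21, Rpl22, Rpl23, Rpl35 and Rpl35a rose by 0.11 to 0.22. Between WT sexes the calls of Rps29 and Rpl38 held in all 6 fits that left out a library. That of Rpl23 was lost in 5 of them, that of Rps28 in 4, and those of Rpl11, Rpl22 and Rpl37a in 3 each. Those of Rpl30 and Rpl37 were each lost in 1.

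Of the stalk, Rplp2 read 2251, 2337 and 2454 TPM in male WT and 1982, 2024 and 2074 TPM in female WT, a log2 fold change of 0.21 (SE 0.038, adjusted p = 0.0128 by limma). Its partner Rplp1 did not pass, at -0.024 (SE 0.029, adjusted p = 0.65 by limma). Rplp0, to which both bind, was higher by 0.31 without passing (adjusted p = 0.0671 by limma). The large-subunit genes gave 12 of 46 calls and the small-subunit genes 5 of 31, a difference that was not tested.

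**Figure D2:**
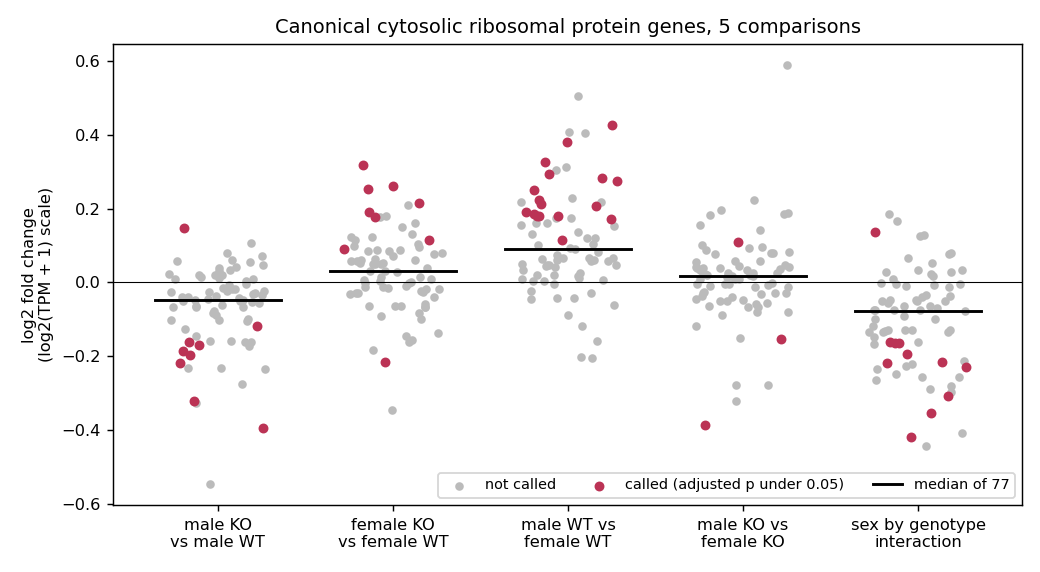
Log2 fold change on the log2(TPM + 1) scale (y) of the 77 canonical ribosomal protein genes in each of 5 comparisons (x); each point is 1 gene, red points passed an adjusted p of 0.05 and the black bars are medians. The points shift upward between male WT and female WT (median 0.090) and downward in the interaction (median -0.078).

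In female KO cells the members that passed were mostly higher than in female WT. 11 of 81 members (13.6%) passed by limma, 10 higher and 1 lower in female KO, where 11.5% of all genes passed, 5.63% higher and 5.84% lower. The canonical median was 0.031, against -0.023 for all genes, and it was 0.0025 without female WT replicate 2. It turned to -0.0051 under quantile normalization, which called 7 members higher and 3 lower. With copies added 14 passed, against 11.7% of all genes, including 10 of the 11. Leaving out any 1 library left 5 (without female WT replicate 3) to 7 calls.

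Rps29 rose from 1628, 1466 and 1569 TPM in female WT to 1869, 1832 and 1879 TPM in female KO, without overlap, by 0.26 (SE 0.040, adjusted p = 0.00981 by limma). Rpl37a read 1159, 1054 and 1095 TPM in female WT and 1301, 1318 and 1319 TPM in female KO, a log2 fold change of 0.25 (SE 0.036, adjusted p = 0.00807 by limma). Rpl36a, an X-linked protein near the site where tRNA leaves, read 866, 739.5 and 867 TPM against 983, 1077 and 1016 TPM. It was higher by 0.32 (SE 0.068, adjusted p = 0.0302 by limma), and the call was lost in 5 of 6 fits that left out a library, with adjusted p up to 0.0960.

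Rpl38, Rpl21, Rpl32 and Rpl24 rose by 0.090 to 0.19. The call of Rpl38 was lost in 4 of 6 fits that left out a library, with adjusted p up to 0.0766 by limma. The paralogs Rpl22l1 and Rpl39l also passed and are described with the paralogs. The only member that fell was Rpl27, at -0.22 (SE 0.035, adjusted p = 0.0121 by limma), but 3179 TPM lay on Rpl27-ps3 against 296 TPM on Rpl27 itself. With copies added it read 0.066 (adjusted p = 0.151 by limma), so its direction depended on how these reads were shared.

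In male KO cells a smaller share of members passed than of all genes. Few were higher than in male WT, and the share that was lower was near that of all genes. 10 of 81 members (12.3%) passed by limma, 1 higher and 9 lower in male KO, where 21.6% of all genes passed, 10.7% higher and 10.9% lower. The canonical median was -0.047, against -0.015 for all genes. With copies added 10 passed, against 21.9% of all genes, and 8 were shared. Leaving out any 1 library left 2 (without male KO replicate 3) to 6 calls, and a fit with no mean-variance trend gave 1.

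Rps6, the classical substrate of S6 kinase, read 2380.5, 2292 and 2334 TPM in male WT and 2207, 2120.6 and 2121 TPM in male KO. The groups did not overlap, and the log2 fold change was small, at -0.12 (SE 0.029, adjusted p = 0.0273 by limma). Rps28 fell by 0.20 as deposited and by 0.30 with copies (adjusted p = 0.00188 by limma). Its copy Gm10443, with all of the Rps28 coding stretches, had 104 TPM as a mean of all libraries. Rps3a1 fell by 0.39 as deposited but read -0.029 with copies (adjusted p = 0.635 by limma).

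Rpl11 read 905, 975 and 897 TPM in male WT and 832, 792 and 818 TPM in male KO, a log2 fold change of -0.19 (SE 0.041, adjusted p = 0.0188 by limma). Its partner Rpl5 was at -0.23 without passing (SE 0.092, adjusted p = 0.123 by limma) and read 0.021 with copies. Rpl23, which like Rpl5 and Rpl11 can bind Mdm2, read 1074, 1004 and 1074 TPM against 957, 927 and 919 TPM, a log2 fold change of -0.17 (SE 0.037, adjusted p = 0.0183 by limma). Rpl37 fell by 0.22.

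Rplp0, the base of the stalk, fell from 77.9, 86.5 and 88.7 TPM to 65.96, 73.2 and 62.9 TPM, by 0.32 (SE 0.075, adjusted p = 0.0228 by limma). With copies it fell by 0.46 (adjusted p = 0.00379 by limma). Rpl27 fell by 0.16 as deposited and did not pass with copies (adjusted p = 0.510 by limma). The calls of Rps3a1, Rps28, Rpl11, Rpl23, Rpl27, Rpl37 and Rplp0 were each lost in 2 to 5 of the 6 fits that left out a library, with adjusted p up to 0.121.

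Rps4x, an X-linked small-subunit protein that in the mouse has no Y-linked counterpart, was the member that rose in both sexes. It read 1454, 1435 and 1444 TPM in male WT, 1636, 1584 and 1576 TPM in male KO, 1463, 1411.5 and 1451 TPM in female WT and 1649.9, 1700.5 and 1673 TPM in female KO. Every KO library lay above every WT library. The log2 fold change was 0.15 in males (SE 0.027, adjusted p = 0.00931 by limma) and 0.22 in females (SE 0.024, adjusted p = 0.00279 by limma), and both held in all fits that left out 1 library. In males the call was lost without a mean-variance trend (adjusted p = 0.0927).

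The other X-linked members are Rpl10, Rpl36a and Rpl39. Rpl10, which completes the peptidyl transferase center late in assembly, showed no call as deposited, but 2504 of its 2853 TPM with copies lay on the autosomal copy Rpl10-ps3. With copies it read 2783, 2703 and 2653 TPM in male WT, 2972, 2869 and 2924.5 TPM in male KO, 2659, 2632 and 2674 TPM in female WT and 3115, 3211.5 and 3038 TPM in female KO. KO libraries again lay above WT libraries, by 0.11 in males (adjusted p = 0.0373 by limma) and by 0.23 in females (adjusted p = 0.00241 by limma), with an interaction of -0.13 (adjusted p = 0.0451 by limma). Whether these reads came from the X-linked gene or from the copy cannot be told apart. Rpl39 did not pass between genotypes, with -0.0064 in males and 0.12 in females.

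**Figure D3:**
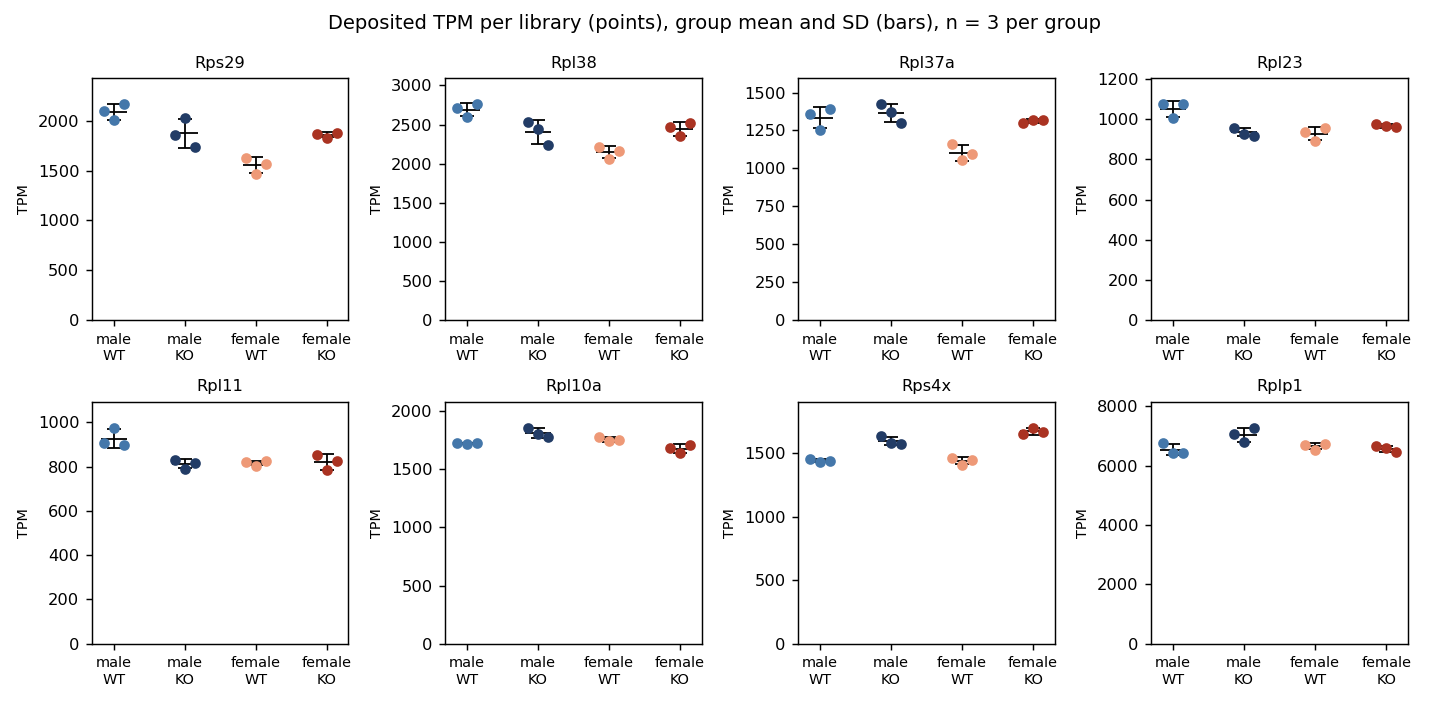
Deposited TPM (y, from 0) of 8 canonical ribosomal protein genes in the 3 libraries of each group (x); points are libraries and bars the group mean and SD. Rps29, Rpl38 and Rpl37a are lowest in female WT, Rps4x is higher in both KO groups, and Rplp1, the most abundant, changes little.

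Between KO cells of different sex, few members differed. 4 of 81 (4.94%) passed by limma, 1 higher and 3 lower in male KO, where 16.6% of all genes passed, 8.17% higher and 8.39% lower. The canonical median was 0.018, against -0.013 for all genes, and it was -0.0125 without male KO replicate 1. With copies added 5 passed, against 16.8% of all genes. Median-of-ratios scaling gave 1 call, which was lower in male KO, and without female KO replicate 2 or 3 the count was 1.

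Rpl10a, a protein of the L1 stalk, was higher in male KO, at 1855.5, 1803 and 1774 TPM against 1682, 1642 and 1713 TPM in female KO. The log2 fold change was 0.11 (SE 0.028, adjusted p = 0.0425 by limma) and 0.16 with copies, and the deposited call was lost in all 6 fits that left out a library (adjusted p up to 0.127). Rpl36a was lower by 0.15, and its call was lost in 5 of these 6 fits (adjusted p up to 0.138 by limma). The paralog Rpl39l is described with the paralogs. Rps12 was lower by 0.39 as deposited, but with Rps12-ps3 and its other copies it read 0.030 (adjusted p = 0.585 by limma).

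Whether the genotype difference differed between the sexes was tested by the interaction over all 12 libraries, coded as the male minus the female difference. 12 of 81 members (14.8%) passed by limma, 1 higher and 11 lower, where 13% of all genes passed, 6.7% higher and 6.33% lower. The canonical median was -0.078, against 0.0047 for all genes, and 61 of 77 were below 0. With copies added 15 passed, against 13.1% of all genes, and 11 were shared. Without male KO replicate 3 the count was 6, and without female WT replicate 2 or female KO replicate 2 it was 7.

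Among canonical members that passed, the largest interaction was that of Rps29, at -0.42 (SE 0.075, adjusted p = 0.00316 by limma), followed by Rpl38 at -0.35 (SE 0.066, adjusted p = 0.00415 by limma). In males Rps29 read 2097, 2006 and 2165 TPM in WT and 1861, 2023 and 1738 TPM in KO, which overlap, while in females KO lay above WT. Rpl38 read 2527, 2446 and 2234 TPM in male KO, below the male WT libraries, and 2469, 2347.5 and 2524 TPM in female KO, above the female WT libraries. Neither male difference passed (adjusted p = 0.0999 and 0.0595 by limma). Both interactions held in all 12 fits that left out 1 library, as did those of Rpl23 and Rpl10a.

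Rpl36a, Rpl23, Rpl37a, Rpl35a, Rpl11, Rpl32, Rplp2 and Rpl21 also had negative interactions, from -0.31 to -0.16. The calls of Rpl37a and Rplp2 were each lost in 9 of the 12 fits that left out a library. That of Rpl11 was lost in 8 and that of Rpl36a in 5, and the highest adjusted p, for Rpl37a, was 0.103 by limma. Rpl10a was the only member with a positive one, at 0.14 (SE 0.033, adjusted p = 0.0188 by limma). The interaction and the comparisons within sex and genotype share libraries, female WT above all, so these counts are not independent of each other.

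Members with short and long coding sequences had different medians in several comparisons, a difference that was not tested. Between male WT and female WT the 16 canonical members with under 350 coding bases had a median log2 fold change of 0.24, against 0.065 for the 61 longer ones. The corresponding medians were 0.092 and 0.0065 between female KO and female WT, -0.084 and -0.045 between male KO and male WT, and 0.0012 and 0.021 between male KO and female KO. In the interaction they were -0.19 and -0.070. As a description over 77 genes measured in the same libraries, Pearson's r between log2 coding length and log2 fold change was -0.31, -0.34, -0.011, -0.056 and 0.28 in that order.

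Genes outside the ribosome were split by transcript length, an unlike measure, and were not matched to the members on level. The 475 other protein-coding genes with transcripts under 600 bases had medians of -0.0020 between male WT and female WT and -0.035 between female KO and female WT. The medians of longer genes were -0.020 and -0.023. On deposited values, r between the log2 of the mean level and log2 fold change over the 77 members was 0.56 in males. It was 0.30 in females and -0.070 between WT sexes. The lowest deposited levels were those of Rpl29, Rps3a1 and Rpl5, whose copies held most of the sum. This r was not computed with copies added, so a part of level cannot be told apart from how reads were shared. Fragment lengths and RNA integrity per library are not given in the sources used here, and their part was not tested.

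**Figure D4:**
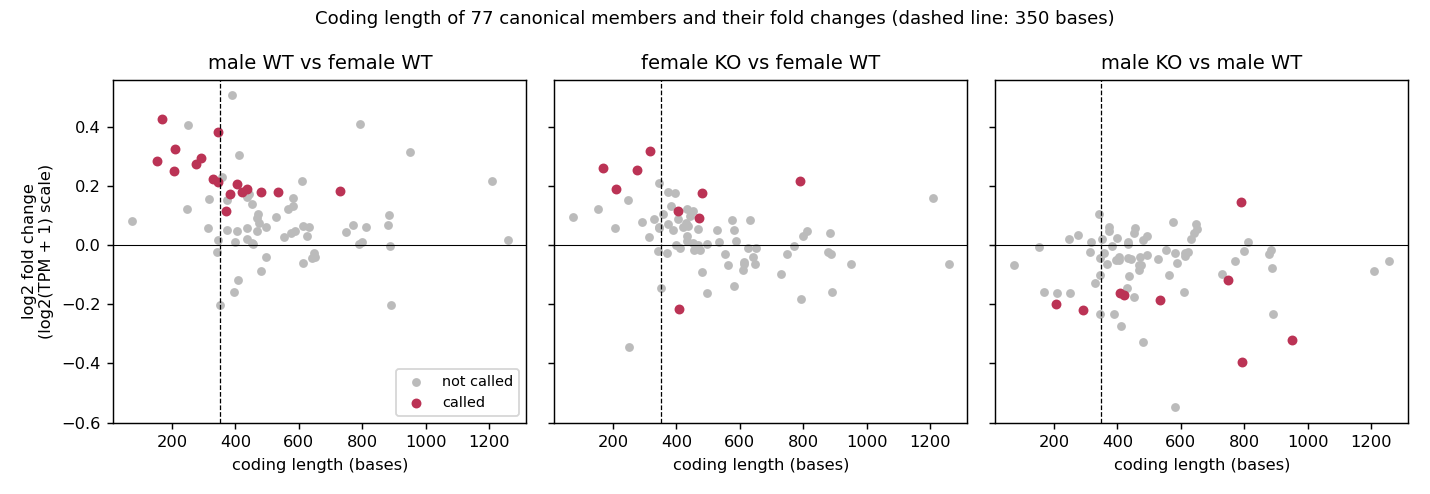
Log2 fold change on the log2(TPM + 1) scale (y) against coding length in bases (x) for 77 canonical members in 3 comparisons, with red points for calls and a dashed line at 350 bases. Left of the line the medians are 0.24 between male WT and female WT and 0.092 between female KO and female WT, and right of it 0.065 and 0.0065.

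The 6 paralogs replace or resemble a canonical protein, some of them mainly in particular tissues. Rpl10l, an autosomal testis form of Rpl10 with 98.6% of residues identical, was listed at 0 in all 12 libraries. Rpl3l, the striated muscle form of Rpl3 with 76.2% identity, had at most 0.284 TPM and was not tested. The other 4 passed the filter of a mean of at least 1 TPM.

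Rpl39l, a form of Rpl39 best known from male germ cells, shares 94.1% of residues with it and 8 coding stretches of 31 bases. It read 1.15, 0.743 and 1.65 TPM in male WT, 0.642, 0.669 and 0.371 TPM in male KO, was listed at 0 in all 3 female WT libraries, and read 2.65, 3.35 and 1.93 TPM in female KO. The female KO libraries were the 3 highest, and no male KO library reached a male WT one. Its mean of 1.096 TPM passed the filter only through female KO, so its calls are no support for a difference, and since the female WT libraries are at 0 no fold is given. Without Rpl39l the members called number 10 between female KO and female WT, 17 between WT sexes, 3 between KO sexes and 11 in the interaction.

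These levels are at most 0.503% of the sum of Rpl39l and Rpl39. The germ cell markers Dazl and Tnp1 were at 0 in every library, Ddx4 had at most 0.120 TPM, and Prm1 was at most 2.04 TPM. The 3 genes whose log2(TPM + 1) over the 12 libraries was most like that of Rpl39l were Cped1 (r = 0.94), Pgm5 (r = 0.93) and Ank3 (r = 0.93), given as a description.

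Rpl22l1, which is known to rise when Rpl22 is lost, shares 70.3% of residues with it. It read 397, 316 and 388 TPM in male WT, 446, 460.3 and 430.0 TPM in male KO, 334, 364 and 357 TPM in female WT and 407, 432 and 388 TPM in female KO. KO libraries lay above WT libraries of the same sex, by 0.22 in females (SE 0.050, adjusted p = 0.0384 by limma) and by 0.29 in males, where the test was not passed (SE 0.085, adjusted p = 0.0544 by limma). The female call was lost in 5 of 6 fits that left out a library, with adjusted p up to 0.107. The interaction was 0.070 (SE 0.11, adjusted p = 0.756 by limma).

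Rpl22 itself, at 1129 TPM, read -0.0038 in males and 0.13 in females, neither of which passed. Rpl22l1 held 23.8% ± 2.17 of the sum of both in male WT, 27.6% ± 0.826 in male KO, 25.3% ± 1.45 in female WT and 26.4% ± 1.64 in female KO (SD, n = 3). The male shares did not overlap, and the female ones did.

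Rps27l, a p53 target in many cells, differs from Rps27 at few residues (96.4% identity) but shares no coding stretch of 31 bases with it. It read between 691 and 858 TPM and passed in no comparison. The female KO libraries, at 816, 839.5 and 841 TPM, lay above the female WT libraries, at 789, 691 and 764 TPM, with a log2 fold change of 0.16 that did not pass (SE 0.050, adjusted p = 0.0993 by limma). As deposited it held 57.2% to 91.1% of the sum of Rps27l and Rps27, and 17.5% to 20.6% once the copies of each were added. Whether Rps27l is the larger or the smaller of the 2 therefore depended on the copies of Rps27.

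Rpl7l1, which is only 40.7% identical to Rpl7, fell in male KO from 88.3, 89.4 and 84.5 TPM to 76.0, 76.1 and 76.85 TPM. The log2 fold change was -0.19 (SE 0.042, adjusted p = 0.0185 by limma), and the call was lost in 4 of 6 fits that left out a library (adjusted p up to 0.0584). In females it read 90.2, 83.2 and 86.4 TPM in WT and 79.8, 76.7 and 74.6 TPM in KO, also without overlap, at -0.17 without passing (SE 0.046, adjusted p = 0.0674 by limma). Rpl7 was at 0.0095 and 0.049 and passed in neither. Rpl7l1 was most alike to Fkbp4 (r = 0.95) and Smoc2 (r = 0.94), Rpl22l1 to Creb3l1 (r = 0.92), and Rps27l to Smim7 (r = 0.89) and Rpl9 (r = 0.88), over the same 12 libraries.

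**Figure D5:**
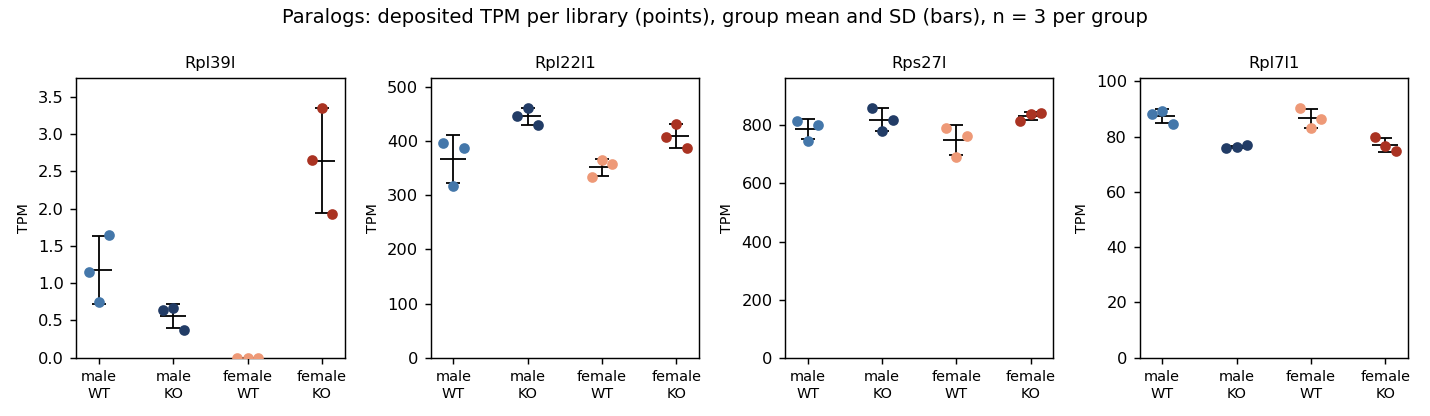
Deposited TPM (y, from 0) of 4 paralogs in the 3 libraries of each group (x); points are libraries and bars the group mean and SD. Rpl39l is listed at 0 in female WT and reaches 3.35 TPM in female KO, Rpl22l1 is higher and Rpl7l1 lower in KO libraries of each sex, and Rps27l is higher in female KO than in female WT while the male groups overlap.

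Genes that build ribosomes were more often lower than all genes in male KO and in female KO. Of 97 tested ribosome biogenesis genes, 41 were lower and 0 higher in male KO, where 10.9% of all genes were lower, with a median log2 fold change of -0.19. In female KO 19 were lower and 0 higher, where 5.84% of all genes were lower, with a median of -0.11. Between WT sexes 3 were lower in males, where 6.56% of all genes were. Between KO sexes 16 were lower and 1 higher, where 8.39% of all genes were lower, and in the interaction 9 were lower and 1 higher, where 6.33% of all genes were lower. The female count was 10 with median-of-ratios scaling or with no trend and 6 with the replicate block, which left 40 lower in male KO, and all 5 medians stayed negative under the 3 scalings tried.

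Npm1, a nucleolar chaperone, read 1801, 1757 and 1778 TPM in male WT and 1442, 1402 and 1380 TPM in male KO, a log2 fold change of -0.34 (SE 0.028, adjusted p = 2.88e-04 by limma). Its fall was greater in males, with an interaction of -0.22 (adjusted p = 0.00154 by limma). Nip7, Rrp9 and Gnl2, which take part in rRNA processing and subunit maturation, fell most in male KO, by 0.45, 0.43 and 0.39. In female KO the largest falls were those of Taf1d and Polr1e, of the RNA polymerase I machinery, and Grwd1, by 0.34, 0.32 and 0.31. Ruvbl1 and Utp14a were lower in male than in female KO, by 0.35 and 0.38.

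Of 31 elongation factors and other mRNAs of the TOP class, a list that shares Npm1, Rack1 and Fau with the other lists, 6 were lower and 0 higher in male KO, 3 lower and 1 higher in female KO, 2 higher and 1 lower in male WT against female WT, 6 lower and 1 higher between KO sexes, and 2 lower and 1 higher in the interaction. Over all genes 10.7% were higher and 10.9% lower in male KO, 5.63% and 5.84% in female KO, and 8.17% and 8.39% between KO sexes. The shares were 6.26% and 6.56% between WT sexes and 6.7% and 6.33% in the interaction, and the counts of the list there were near or under them. With no mean-variance trend 1 was lower in male KO and 0 changed in female KO, where the replicate block also gave 0. The X-linked initiation factor gene Eif2s3x was lower in males than in females by 0.70 in WT and 0.85 in KO. The elongation factor gene Eef1b2 was higher by 0.14 in female KO and in male WT, each against female WT. Eif3c fell by 0.18 in female KO and was higher by 0.24 in male than in female KO, and Eif3e was higher by 0.21 in male than in female WT.

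Of the ribosomal protein genes with other names, Fau, a fusion with a ubiquitin-like part, and Rack1, a signaling scaffold on the small subunit, passed in no comparison. Rpl36al, the autosomal twin of Rpl36a, was higher by 0.27 in male WT against female WT (SE 0.028, adjusted p = 0.00135 by limma), fell by 0.19 in male KO, rose by 0.16 in female KO and had an interaction of -0.35 (adjusted p = 0.00207 by limma). Rps27rt and Rpl10-ps3 rose in female KO by 0.25 and 0.27, and Rpl10-ps3 by 0.12 in male KO. With median-of-ratios scaling or with no trend 0 of these genes passed in male KO. Rpl9-ps6 had at most 1.48 TPM and was not tested.

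Of 22 tested genes that control ribosomal protein mRNAs or respond to the ribosomal proteins that bind Mdm2, 2 were higher and 3 lower in male KO, 2 higher and 1 lower in female KO, 0 higher and 3 lower in male against female WT, 1 higher and 6 lower between KO sexes, and 2 higher and 0 lower in the interaction. Of all genes 10.7% were higher and 10.9% lower in male KO, 5.63% and 5.84% in female KO, 6.26% and 6.56% between WT sexes, 8.17% and 8.39% between KO sexes, and 6.7% and 6.33% in the interaction. Larp1, which binds TOP mRNAs, fell by 0.16 in male KO and was at -0.046 in female KO. Eif4ebp1, a target of mTOR and of Atf4, rose by 0.44 in male KO (SE 0.046, adjusted p = 7.51e-04 by limma) and was at 0.028 in female KO, with an interaction of 0.41. Myc, which drives ribosome production, fell by 0.32 in female KO and was at -0.11 in male KO.

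Cdkn1a, a p53 target, rose by 0.23 in male KO and by 0.34 in female KO, and was lower in males than in females by 0.53 in WT and 0.64 in KO. Mdm2 was lower in males than in females by 0.35 and 0.59 and passed in neither genotype comparison. The T-antigen was present in all groups.

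Within groups, canonical members deviated together. Over 12 libraries the median pairwise r of deviations from group means was 0.29 (quartiles 0.015 and 0.54), and 75.9% of pairs were above 0, as a description of genes that share libraries and the TPM total. The median within-group SD on the log2 scale was 0.056, from 0.015 to 0.96. The 83 members lie on 19 chromosomes, most on chromosome 7 with 14, chromosome 17 with 8 and chromosomes 9 and 11 with 7 each, and 4 are X-linked.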

How the data were processed

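PolyA RNA of 12 MEF libraries was quantified by the authors with Salmon (1.10.1 per the labels) against GRCm38, and TPM for 34866 genes were deposited; no column of values was left unused. Symbols, positions and coding sequences came from GENCODE M21 of GRCm38, to which 99.39% of identifiers matched. The members and gene lists were chosen with earlier results of these data known. TPM are not counts, so log2(TPM + 1) was tested, for 12504 genes whose mean reached 1 TPM, with limma 3.58.1 in R 4.3.3 with a mean-variance trend, Benjamini-Hochberg adjustment over all genes and a threshold of 0.05, in fits of 6 libraries and, for the interaction, 12; log2 fold changes are on this scale and understate the change of low genes. The study's own test, DESeq2 on TPM, was not repeated because it needs counts.

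Near-identical copies were genes sharing at least 25% of 31-base coding stretches both ways, and adding them was chosen after seeing the data. Named were all paralogs with their partners, X-linked members, Rplp0, Rplp1, Rplp2, Rpsa, Rpl5 and Rpl11, the 3 highest and lowest canonical members, the 5 canonical members of largest change among those called in each comparison, from each list (ribosome biogenesis, TOP mRNAs, ribosomal protein genes with other names, control genes) the 3 of largest change, and Larp1, Myc, Mdm2 and Cdkn1a; other called members are named with them. Alternatives were leaving out each library, a replicate block, a single fit to all libraries, no trend, TPM rescaled to protein-coding genes, quantile or median-of-ratios scaling, adding named pseudogenes, a pseudocount of 0.1, and a filter at 5 TPM or none. Paired numbers were checked: same-numbered deviations correlated between -0.057 and 0.078, so the numbers were not taken to pair libraries. No 2 libraries held identical values. The code was tested on simulated data, with changed genes drawn from those tested and not from the members alone. Over the 5 comparisons 0% to 4% of log2 changes of 0.2 were recovered, and 20% to 34% of those of 0.4. For changes of 0.8 and 1.6 it was 50% to 76% and 80% to 94%, and at most 8.6% of calls were false. Some results for genes that these rules would name are not reported here.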

Additional observations from a re-analysis of the deposited data

Results flagged for a closer look

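For 12 of 81 members (14.8%) the genotype difference differed between the sexes, a share near the 13% of all genes. The test was the interaction over 12 libraries (limma with Benjamini-Hochberg adjustment, adjusted p under 0.05), coded as the male minus the female difference. Of the paralogs, Rpl39l had a fitted value of -2.31, which is no measure of size and no support for a difference, since the gene passed the filter only through female KO, its 3 female WT libraries are listed at 0 and the value was -5.67 with a pseudocount of 0.1. Of the small subunit, Rps29 had -0.42. Of the large subunit, Rpl38 had -0.35, Rpl36a -0.31, Rpl23 -0.23, Rpl37a -0.22, Rpl35a -0.22, Rpl11 -0.19, Rpl32 -0.17 and Rpl21 -0.16, the last at an adjusted p of 0.0558 with copies added. The stalk protein gene Rplp2 had -0.16. Of the 12 fits that left out a library, Rpl37a and Rplp2 each lost the call in 9, Rpl11 in 8 and Rpl36a in 5. Rpl10a had 0.14, the only positive value, with male KO libraries at 1774 to 1855.5 TPM and male WT at 1715 to 1729 TPM, against 1642 to 1713 TPM in female KO and 1740.1 to 1775 TPM in female WT.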

How the results depend on the processing

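Counts of members called by limma with Benjamini-Hochberg adjustment are given in the order male KO against male WT, female KO against female WT, male WT against female WT, male KO against female KO, and interaction, and stood at 10, 11, 18, 4 and 12. They were 6, 6, 11, 1 and 5 with no filter on low values and 1, 4, 5, 1 and 4 with no mean-variance trend. Median-of-ratios scaling gave 5 between male KO and male WT and 1 between KO sexes, all libraries in one fit gave 18 and 7 for the same comparisons, and quantile normalization gave 7 between KO sexes. Leaving out each library gave 2 to 6, 5 to 7, 7 to 18, 1 to 6 and 6 to 14 calls, with 1 residual degree of freedom less by construction. The replicate block gave 6 between female KO and female WT, and all other counts were within 1.5 times.

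The median log2 fold change of canonical members moved most for female KO against female WT, to -0.0051 under quantile normalization from 0.031. Leaving out each library gave medians from -0.069 to -0.029, from 0.0025 to 0.044, from 0.059 to 0.11, from -0.013 to 0.026 and from -0.11 to -0.071. With the replicate block the female count was 6 and the others 8, 14, 3 and 10, while the numbers were not shown to pair libraries.

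Of 42 results for named canonical members and paralogs, 2 changed direction: Rpl27 between female KO and female WT (0.066 with named pseudogenes and 0.066 with all copies added) and Rps12 between KO sexes (0.030 with either). By construction, both then carry the values of Rpl27-ps3 (3179 TPM against 296 TPM on Rpl27) and Rps12-ps3 (4529 against 205 TPM), which hold most of the sums. Without a trend 28 of the 42 lost the call and kept their direction, and so did 124 of 306 values that leave out a library; none of these changed direction. TPM carry no counting error, so precision rests on 3 libraries per group.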
